A study of Mus musculus with 120 samples.

Results

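The cornified envelope genes described here are 10 genes of the outermost epidermis, *Lor*, *Ivl*, *Sprr1a*, *Flg*, *Flg2*, *Tgm3*, *Lipm*, *Krtdap*, *Sbsn* and *Dmkn*. They were taken by gene symbol from the genes listed in both deposited count tables, and each of the 10 was found there once, among 55487 shared genes. The set was proposed after earlier results of these data were known, because *Lor* and *Lipm* were chosen by the study from its comparison of progressors 7 and 5 weeks before onset. Values from that comparison are therefore given below as a description, with no test.

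The cornified envelope is the protein shell that replaces the plasma membrane of a keratinocyte as it becomes a dead cell of the skin surface. Loricrin, involucrin and the small proline-rich proteins are its precursors, and transglutaminases cross-link them beneath the membrane, where lipids are then attached on the outer face. Filaggrin and filaggrin 2 gather keratin filaments in the same cells, and keratin 1 and keratin 10 are the keratins of these layers above the basal one. Hair follicles build a related cross-linked structure in the inner root sheath around trichohyalin.

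Each library came from an immunological niche (IN), a porous polycaprolactone scaffold that was placed under the back skin of 4-week-old female mice, explanted through a skin incision and replaced in the same space. The 23 libraries of 5 NOR/LtJ mice, a strain that shares the diabetogenic major histocompatibility haplotype of NOD but stays free of diabetes, were taken every 4 weeks between the ages of 6 and 22 weeks. The 39 libraries of NOD/ShiLtJ nonprogressors, numbered as 11 mice, were taken at 6 to 22 weeks of age or, in 6 cases, at 31, 38 or 108 days post implant, and the 58 libraries of 10 NOD/ShiLtJ progressors at 6 weeks of age, 7, 5, 3 and 1 weeks before onset of hyperglycemia (−7 to −1), and onset. All mice carried implants, so no group shows the tissue without one. The 6-week INs were the first to be taken out, and all later ones came from mice with earlier explants, so that age and repeated surgery cannot be told apart. Batch means the sequencing batch given in the labels, 74 libraries in batch 1 and 46 in batch 2. All NOR libraries were in batch 1. The −7 libraries were all in batch 2, including those of progressor mice 1 to 4, whose other libraries were in batch 1.

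Values are in CPM, counts scaled to a common library size, with TMM scaling across all 120 libraries. Total counts ran from 4722396 to 56185434 in batch 1 and from 29029239 to 43880986 in batch 2. After TMM scaling, 1 count was worth 0.0172 to 1.03 CPM in batch 1 and 0.0211 to 0.0285 CPM in batch 2. The 1.03 CPM belonged to the 18-week library of NOR mouse 5, which had a total of 8616431 counts and, by its TMM factor, an effective size of 970397. There the 7.21 CPM of *Lor*, 4.12 CPM of *Tgm3* and 3.09 CPM of *Flg* are only a few counts each, while *Krt1*, *Krt10* and *Krt14* were at 0. Detection limits drawn from counts cover counting error only. The intervals of fitted differences come from the SE of the fit, which also takes in the spread between libraries.

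The genes form position groups. *Sprr1a* (chr3:92483952-92485895), *Ivl* (chr3:92570902-92573735) and *Lor* (chr3:92080271-92083142) lie on the minus strand of chromosome 3, and *Flg2* (chr3:93197278-93221391) and *Flg* (chr3:93273523-93293686) on its plus strand, in the region known as the epidermal differentiation complex. *Sbsn* (chr7:30751471-30756134), *Dmkn* (chr7:30763756-30781063) and *Krtdap* (chr7:30787896-30791097) follow each other on the plus strand of chromosome 7. *Tgm3* (chr2:130012349-130050399) and *Lipm* (chr19:34100933-34122687) stand alone. All positions are GRCm38, from GENCODE M21. The noncoding gene *Tmem147os* spans nearly all of *Sbsn* on the same strand, and *Ankrd22* overlaps the end of *Lipm* on the opposite strand. The processed pseudogene *Rplp0-ps1* lies within *Flg* on the same strand, and the miRNA gene *Mir6339* within *Tgm3* on the opposite strand. Reads in the shared stretches may be split between the genes. *Tmem147os* was not past the threshold in any comparison in which *Sbsn* is reported as changed.

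The 200 bases before the start of 4 genes are shown because these genes lead the separate level patterns described below (RefSeq, GRCm38.p6). Capitals mark matches to TGANTCA, the site of AP-1 factors, to CACCC, the core of sites for Krüppel-like factors, and to TATAAA, each on either strand, so that CACCC appears as GGGTG on the other strand. The windows are chr3:92083143-92083342 (minus strand) for *Lor*, chr3:92485882-92486081 (minus strand) for *Sprr1a*, chr7:30751271-30751470 (plus strand) for *Sbsn* and chr2:130012140-130012339 (plus strand) for *Tgm3*.
Lor: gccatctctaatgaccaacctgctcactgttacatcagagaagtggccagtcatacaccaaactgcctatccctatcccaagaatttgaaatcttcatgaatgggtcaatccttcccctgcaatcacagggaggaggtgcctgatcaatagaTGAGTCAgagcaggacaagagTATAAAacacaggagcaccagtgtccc
Sprr1a: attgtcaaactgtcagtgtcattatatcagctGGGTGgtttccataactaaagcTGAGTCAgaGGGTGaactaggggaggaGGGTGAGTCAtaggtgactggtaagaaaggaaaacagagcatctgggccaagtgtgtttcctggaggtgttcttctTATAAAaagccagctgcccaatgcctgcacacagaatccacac
Sbsn: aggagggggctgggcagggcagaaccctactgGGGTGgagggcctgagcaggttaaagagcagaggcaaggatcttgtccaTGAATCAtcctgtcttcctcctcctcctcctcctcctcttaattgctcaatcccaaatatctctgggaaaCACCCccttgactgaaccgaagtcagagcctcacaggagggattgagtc
Tgm3: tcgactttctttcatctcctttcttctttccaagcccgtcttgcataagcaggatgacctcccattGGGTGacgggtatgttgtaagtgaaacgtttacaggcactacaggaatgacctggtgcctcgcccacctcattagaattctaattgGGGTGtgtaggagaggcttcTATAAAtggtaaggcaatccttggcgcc

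The AP-1 letters TGANTCA were found in 8 of the 10 windows, against 5.48% of 32851 promoters of the same length. *Sprr1a* held 2 such matches, the second of them overlapping a CACCC match, and *Tgm3* and *Lipm* held none. CACCC was found in 7 of 10, against 45.5% of all, and TATAAA in 6 of 10, against 9.96%. The letters AACCGGTT, a site of grainyhead-like factors, were found in 0 of 10, against 0.0822% of all. These are counts of letters, and no binding was measured.

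*Sbsn* was the one member present in every library at 1 CPM or more. Its levels ran from 3.16 to 79.3 CPM, with a median of 3.08 CPM per kb of exon. Suprabasin is a secreted protein first known from the suprabasal epidermis. *Dmkn*, which encodes dermokine, another secreted product of the same cluster, had a count in all 120 libraries, reached 1 CPM in 39 of them and had a median of 0.291 CPM per kb. *Krtdap*, which encodes the secreted keratinocyte differentiation-associated protein, was at 0 in 19 libraries and reached 1 CPM in 7, with a median of 0.149 CPM per kb.

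The structural and enzyme genes were near the detection limit in most libraries. *Lor* was at 0 in 62 of 120 libraries, *Ivl* in 63, *Flg* in 77 and *Flg2* in 64, and their median was 0 CPM per kb. *Sprr1a* was at 0 in 27 libraries, *Lipm* in 12 and *Tgm3* in 7, with medians of 0.0803, 0.0364 and 0.0274 CPM per kb. In order of the median level per kb, *Sbsn* was above *Dmkn*, followed by *Krtdap*, *Sprr1a*, *Lipm* and *Tgm3*. The quartiles of *Krtdap* (0.0617 to 0.312 CPM per kb) and *Sprr1a* (0.0292 to 0.378 CPM per kb) overlapped, as did those of *Lipm* (0.0146 to 0.0719 CPM per kb) and *Tgm3* (0.0131 to 0.0563 CPM per kb). Whether these neighbours differ within libraries was not tested. At 1 CPM or more, *Lor* was found in 7 libraries, *Ivl* in 4, *Sprr1a* in 11, *Flg* in 7, *Flg2* in 11, *Tgm3* in 4 and *Lipm* in 7. Their levels were therefore made by a small number of INs, shown in the heat map of all libraries.

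**Figure D1:**
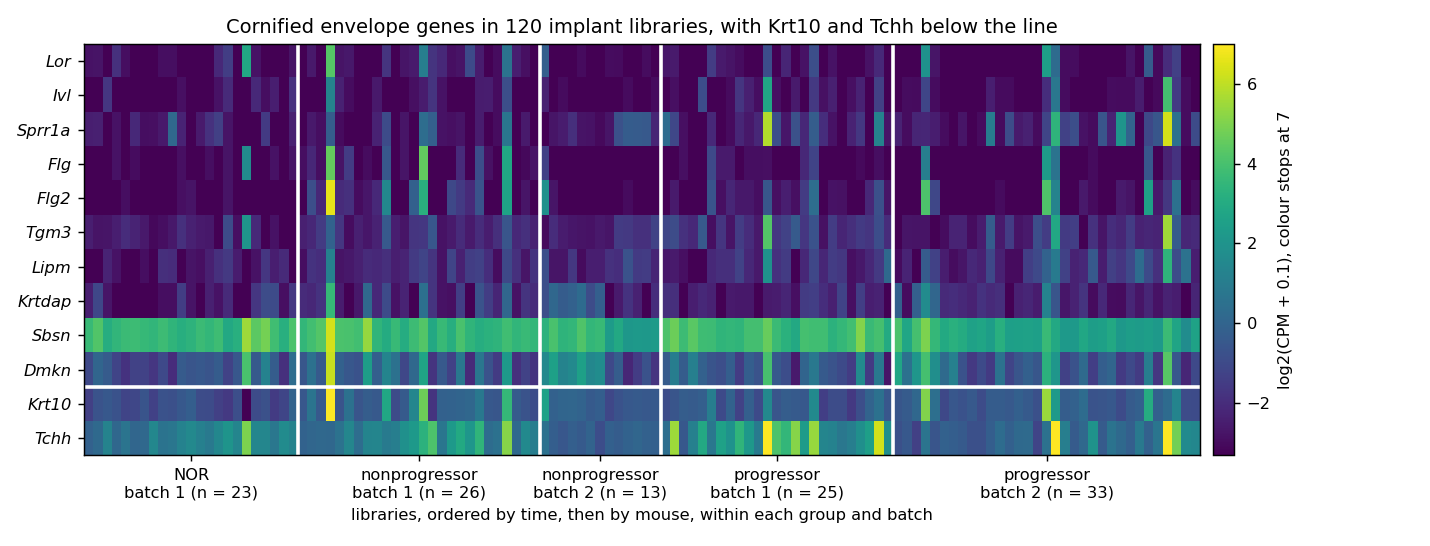
Each column is 1 of 120 libraries, ordered by time and mouse within its group and batch, and each row a cornified envelope gene, with the keratinocyte marker *Krt10* and the hair follicle marker *Tchh* below the line; colour gives log2(CPM + 0.1) and stops at 7. *Sbsn* is coloured throughout, while *Lor*, *Flg* and *Flg2* rise in single columns where *Krt10* rises (except *Lor* and *Flg* in the shallow 18-week library of NOR mouse 5). *Sprr1a* and *Tgm3* are highest in single columns where *Tchh* is highest, as is *Ivl*, except that it also reaches 2.38 CPM in the column with the most *Krt10*.

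The first pattern holds *Lor*, the main precursor of the envelope, and the filaggrin genes. The 6-week IN of nonprogressor mouse 4 (batch 1) had 19.2 CPM of *Lor*, 23.4 CPM of *Flg* and 99.0 CPM of *Flg2*, and the other 3 nonprogressor INs of that age and batch had at most 0.0608, 0.122 and 0.456 CPM. It also had 11.97 CPM of *Krtdap*, 70.3 CPM of *Dmkn* and 79.3 CPM of *Sbsn*, each the highest of the series. For *Ivl* (2.38 CPM) and *Lipm* (2.23 CPM) it was the third highest of the 120 libraries, with *Tgm3* at 0.851 CPM and *Sprr1a* at 0.733 CPM. Its *Krt10* level was 188 CPM, its *Krt1* level 70.0 CPM and its *Krt5* level 168 CPM, whereas *Tchh* was at 0.997 CPM. The library was thus high for suprabasal and basal keratinocyte genes and for most cornified envelope genes, and not for trichohyalin. In bulk tissue, a larger number of keratinocytes and more RNA per keratinocyte cannot be told apart.

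Progressor mouse 9 (batch 2) had the next highest levels of *Flg2*, 17.4 CPM at 6 weeks of age and 17.95 CPM at −5. *Lor* was at 3.71 and 5.47 CPM in these INs, *Flg* at 2.01 and 4.91 CPM, and *Krt10* at 32.7 and 42.99 CPM. Between them, at −7, the same mouse had *Flg2* at 0.0227 CPM, *Lor* and *Flg* at 0 and *Krt10* at 0.704 CPM. The same mouse thus gave INs that were high and low in these genes. Nonprogressor mouse 2 at 18 weeks had 22.7 CPM of *Flg* but 9.22 CPM of *Flg2* and 2.04 CPM of *Lor*, with *Krt10* at 26.1 CPM. Nonprogressor mouse 1 at 38 days post implant had 6.97 CPM of *Flg*, 6.09 CPM of *Flg2* and 1.42 CPM of *Lor*, with *Krt10* at 11.7 CPM. The ratio of *Flg* to *Flg2* therefore differed among high INs, from below 1 in mouse 4 to above 1 in mouse 2. *Flg2* also exceeded 2 CPM in progressor mouse 10 at −1 (5.87 CPM) and −5 (2.37 CPM), nonprogressor mouse 5 at 6 weeks (3.49 CPM) and nonprogressor mouse 2 at 14 weeks (2.65 CPM). *Krt10* was at 8.19, 4.68, 5.93 and 6.90 CPM in these INs, against a median of 0.609 and 0.759 CPM in progressors from −5 to onset in batches 1 and 2.

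The second pattern holds *Ivl*, *Sprr1a*, *Tgm3* and *Lipm*, of which *Ivl* and *Lipm* were also high in nonprogressor mouse 4. Involucrin and small proline-rich protein 1A are envelope precursors, transglutaminase 3 is the cross-linking enzyme of the hair follicle and upper epidermis, and lipase M is an acid lipase of differentiating keratinocytes. Progressor mouse 7 at onset (batch 2) had 15.0 CPM of *Ivl*, 81.0 CPM of *Sprr1a*, 45.6 CPM of *Tgm3* and 10.3 CPM of *Lipm*, the highest value of each in the series. Progressor mouse 2 at −3 (batch 1) followed with 6.77, 56.8, 19.0 and 3.77 CPM. Progressor mouse 10 at −5 (batch 2) had 1.59, 10.3, 7.10 and 1.74 CPM. *Tchh* was at 1986, 2578 and 268 CPM and *Krt27*, an inner root sheath keratin, at 619, 378 and 74.9 CPM in these 3 INs. Basal keratin genes were high as well, with *Krt5* at 112 and 31.4 CPM and *Krt14* at 57.85 and 20.8 CPM in mice 7 and 10. *Krt10* was at 1.12, 2.69 and 4.68 CPM, and *Lor* at 0.149, 0.449 and 1.13 CPM, in the INs of mice 7, 2 and 10. That of mouse 10 is also among the INs high for *Flg2* (2.37 CPM) above, with *Flg* at 1.44 CPM, so it belongs to both patterns. *Dmkn* was high in both patterns, with 20.1, 15.7 and 4.23 CPM in progressor mice 7, 2 and 10. *Krtdap* was at 0.0991 and 0.0691 CPM in mice 7 and 2 and at 0.563 CPM in mouse 10, against a median of 0.101 CPM over all libraries. *Ankrd22*, which overlaps *Lipm*, was at 3.94, 1.14 and 0.441 CPM in the same INs.

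A few INs were high for 1 member with little of either marker. *Sprr1a* was at 4.10 CPM in progressor mouse 7 at −1, with *Tchh* at 1.05 CPM, *Krt5* at 13.5 CPM and *Csn3*, a milk protein gene of mammary epithelium, at 12.4 CPM. *Lipm* was at 1.17 and 1.37 CPM in progressor mouse 9 at −1 and onset, with *Krt10* at 0.804 and 0.427 CPM and *Csn3* at 9.30 CPM at −1. *Lipm* was also at 1.04 CPM in progressor mouse 5 at onset, with *Csn3* at 19.9 CPM. The part of mammary epithelium, which lies in the same subcutaneous fat, in these levels was not tested. *Sbsn* was at 41.6 CPM in nonprogressor mouse 4 at 10 weeks and 34.0 CPM in progressor mouse 2 at onset, with *Krt10* at 0.728 and 0.458 CPM, so that its highest values were not all in INs high for keratinocyte markers.

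**Figure D2:**
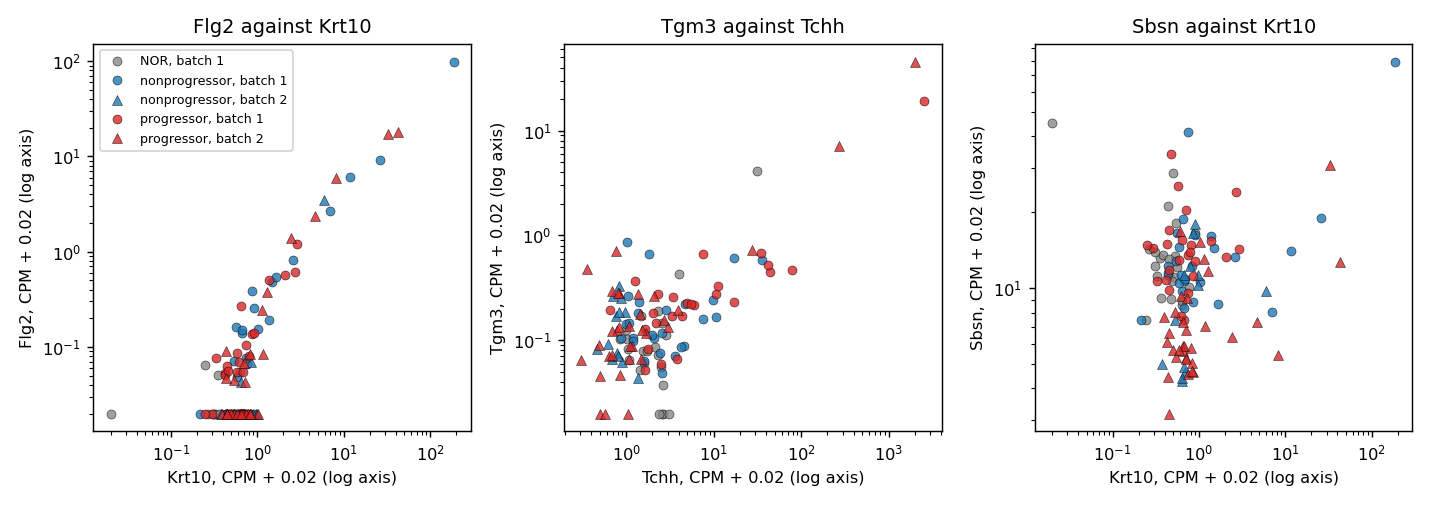
Each point is a library; *Flg2* is plotted against *Krt10*, *Tgm3* against *Tchh* and *Sbsn* against *Krt10*, as CPM + 0.02 on log axes, with colour for the group and shape for the batch. *Flg2* climbs with *Krt10* up to 99.0 and 188 CPM, *Tgm3* is highest in the 3 libraries with *Tchh* at 268 CPM or more, and *Sbsn* reaches 41.6 CPM at a *Krt10* level of 0.728 CPM, its highest value, 79.3 CPM, being at 188 CPM of *Krt10*.

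Across the libraries of a batch, *Sbsn* and *Dmkn* were the pair that went together most closely in both batches. Spearman's rho between them was 0.635 over 74 libraries of batch 1 and 0.896 over 46 libraries of batch 2. *Krtdap* gave 0.505 and 0.676 with *Dmkn*, and 0.257 and 0.741 with *Sbsn*. *Flg2* and *Lipm* gave 0.584 and 0.513, and the filaggrin genes 0.453 and 0.728. *Tgm3* and *Sbsn* gave 0.0928 in batch 1 and −0.423 in batch 2, the lowest of all pairs in that batch. The libraries share mice, time points and depth, and many values are of a few counts, so these are descriptions. By the rule of the mean over members, *Dsc3*, a desmosomal cadherin gene (rho 0.647 and 0.649), and *Exph5*, an effector of vesicle transport in keratinocytes (0.542 and 0.625), were the genes among the 20 most alike in both batches. With Pearson's correlation in place of Spearman's there were 8, *Dsc3*, *Hrnr*, *Dsg1a*, *Dsc1*, *Krt6a*, *Cdsn*, *Elovl4* and *Krt10*, and *Exph5* was not among them. Member by member, by the lower of the rho values of both batches, the gene most like *Flg2* was the epidermal keratin gene *Krt77* (0.755 and 0.671), the one most like *Sprr1a* was *S100a14* (0.646 and 0.685), and the one most like *Lipm* was the basal keratin gene *Krt14* (0.566 and 0.620). For *Sbsn* it was *Sema3e* (0.793 and 0.822), for *Dmkn* it was *Ret* (0.688 and 0.652) and for *Krtdap* it was *Pcolce2* (0.591 and 0.675), none of which is a keratinocyte marker of the lists used here.

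The secreted members were lower in older INs of batch 2, in nonprogressors. This comparison, of the 7 libraries at 6 weeks with the 6 at 14 weeks of age, was added after the values had been seen. *Sbsn* was at 9.70, 10.3, 11.3, 11.3, 12.2, 16.5 and 18.0 CPM at 6 weeks and at 4.27, 4.39, 4.63, 4.84, 4.99 and 7.44 CPM at 14 weeks. *Dmkn* ran from 2.32 to 5.81 CPM (median 2.80) at 6 weeks and from 0.115 to 0.715 CPM (median 0.323) at 14 weeks. *Krtdap* ran from 0.423 to 1.13 CPM (median 0.780) and from 0 to 0.185 CPM (median 0.0810). For each of the 3 genes, every library at 6 weeks was above every library at 14 weeks. In edgeR's quasi-likelihood test, *Sbsn* fell by 1.33 on the log2 scale (SE 0.176, adjusted p = 0.000247), *Dmkn* by 3.31 (SE 0.385, adjusted p = 0.000134) and *Krtdap* by 3.09 (SE 0.502, adjusted p = 0.000659). *Krtdap* passed the filter on low counts only through its 6-week libraries, with at most 8 counts at 14 weeks, so its call is a description. The calls of *Sbsn* and *Dmkn* are descriptions too, because the comparison was added after their values had been seen. *Sbsn*, *Dmkn* and *Krtdap* were the members with enough counts to be tested, and 17.3% of 19665 genes tested were called lower and 34.1% called in either direction.

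Many other genes moved with age in these INs. The fibroblast genes were called lower in 4 of 4 (*Dcn* −1.14, *Pdgfra* −0.66, *Col1a1* −1.29), with a summed level of 16150 to 27020 CPM at 6 weeks and 5806 to 13590 CPM at 14 weeks. Adipocyte genes (4 of 4) and skeletal muscle genes (4 of 4) were called higher, and so were 5 of 5 keratinocyte adhesion genes such as *Pkp3* (3.14) and *Dsp* (3.22) and 2 of 4 tested basal keratinocyte genes (*Col17a1* 2.21, *Krt14* 3.58). The casein gene *Csn3* was at 0 in all 7 libraries at 6 weeks and between 0.0256 and 20.2 CPM at 14 weeks. *Krt10* was called lower (−1.44), and of the other cornified and barrier genes 1 of 8 tested was called, *Evpl* (2.60), which encodes the envelope component envoplakin, the list's median being 0.15 against 0.01 over all genes. Of the regulators of keratinocyte differentiation, 4 of 7 tested were called higher and *Klf4* lower (−1.27). Of the basal, suprabasal, adhesion and wound keratinocyte genes called, *Krt10* alone went the same way as the secreted members. The part of fibroblasts, fat, muscle and mammary epithelium in these differences was not tested. With the mouse as a block, 5 members were called, *Sprr1a* (2.76, adjusted p = 0.00567) and *Tgm3* (1.57, adjusted p = 0.0285) being higher. *Sprr1a* and *Tgm3* had at most 6 counts in a library at 6 weeks, so their calls are descriptions. Over all genes, the alternative fits of this comparison called 4661 to 8290, against 6710 in the main fit. With library totals in place of TMM scaling, the genes called were 62.0% higher in place of 49.2%, and *Sbsn*, *Dmkn* and *Krtdap* were called lower under both.

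**Figure D3:**
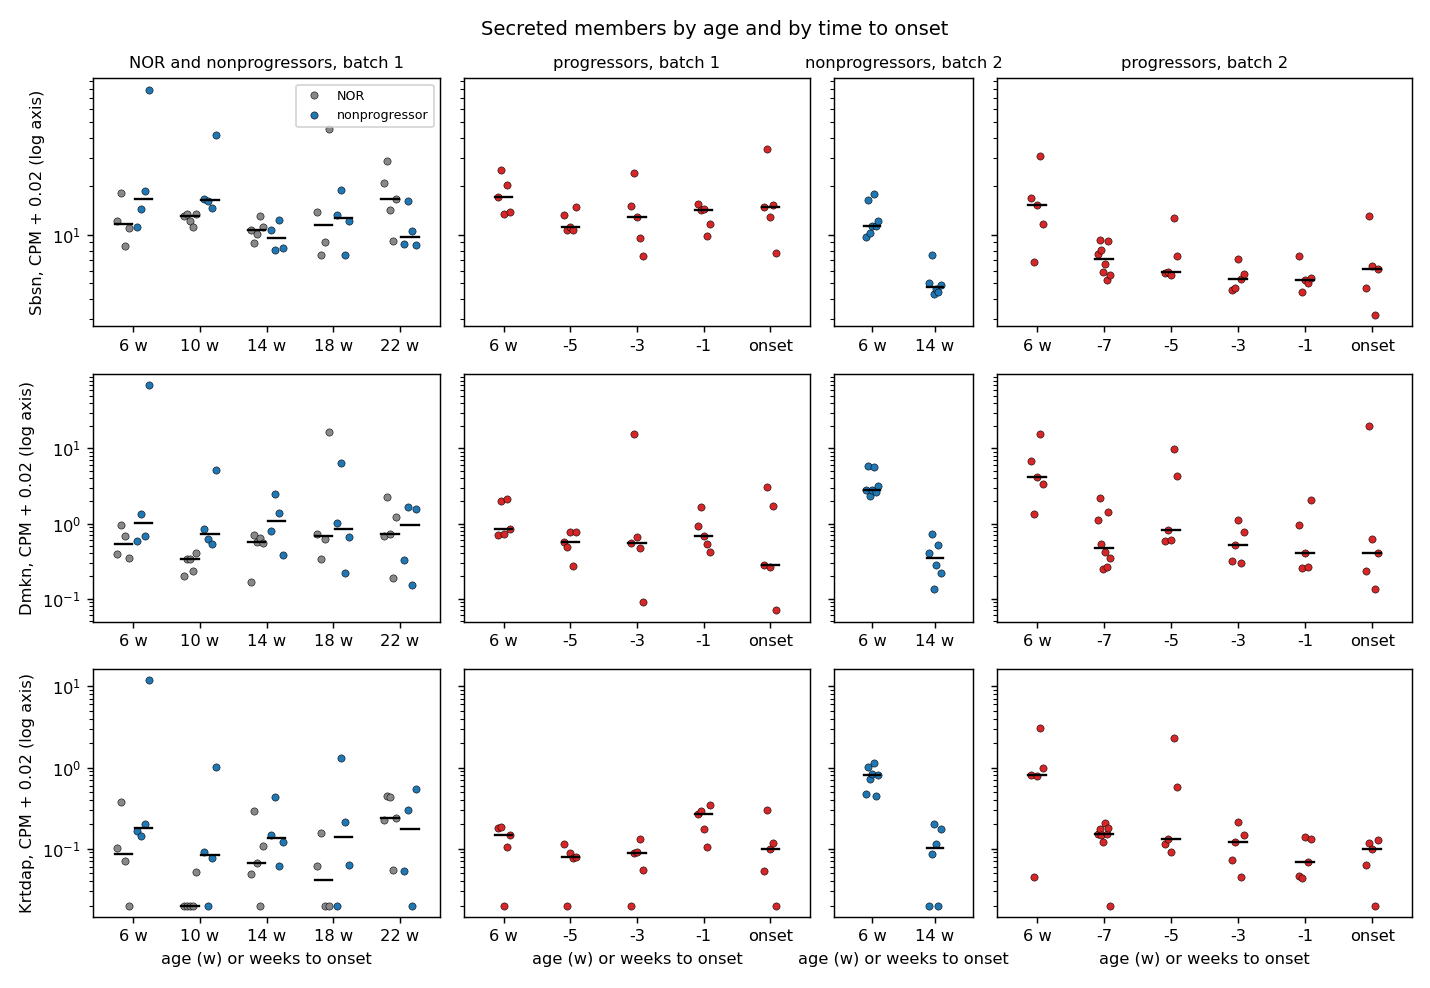
*Sbsn*, *Dmkn* and *Krtdap* are plotted by library against age in weeks or weeks to onset, as CPM + 0.02 on log axes, separately by group and batch; bars are medians. In batch 2 the 6-week libraries of nonprogressors lie above the 14-week ones for all 3 genes, and in batch 1 the ages overlap.

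Batch 1 held the same comparison over more ages, with 4 nonprogressor mice at each. *Sbsn* was at 11.2, 14.4, 18.8 and 79.3 CPM at 6 weeks and between 7.45 and 41.6 CPM at 10 to 22 weeks. *Dmkn* was at 0.574, 0.668, 1.34 and 70.3 CPM at 6 weeks and between 0.133 and 6.40 CPM later. The fourth 6-week value of both genes is nonprogressor mouse 4, and without it the ages overlap. The test of 10 to 22 weeks against 6 weeks called 5 of 7 tested members lower, against 6.35% of 20647 genes called lower, 5.95% higher and 12.3% in either direction. They were *Flg2* (−5.62, SE 0.952, adjusted p = 0.000484), *Dmkn* (−3.65, SE 0.724, adjusted p = 0.00140), *Krtdap* (−3.60, SE 0.778, adjusted p = 0.00284), *Flg* (−4.16, SE 0.977, adjusted p = 0.00552) and *Sbsn* (−1.21, SE 0.331, adjusted p = 0.0151). *Krt10* (−4.61) and *Krt1* (−4.92) were called lower in the same fit, as were 6 of 9 tested other cornified and barrier genes, with *Lipn*, named after its value was seen, called higher (1.27).

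Those 5 calls rested on nonprogressor mouse 4. Without it, 0 members were called and the estimates turned to 2.25 for *Flg*, 1.53 for *Flg2*, 0.44 for *Dmkn* and 0.03 for *Krtdap*, with *Sbsn* at −0.22. Without the 3 libraries with the highest *Krt10*, 0 members were called, with *Dmkn* at 0.20, *Krtdap* at −0.30 and *Sbsn* at −0.18. With the mouse as a block, 2 were called, *Flg* (adjusted p = 0.0458) and *Krtdap* (adjusted p = 0.0452). Over all genes, the block and the other settings that moved the count by less than 1.5 times called 1884 to 3575. With library totals, 4.75% of the genes called were higher in place of 48.3%, the median gene shifting by −0.27 on the log2 scale, and the 5 members were called lower under both.

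In NOR mice of batch 1, *Sbsn* was at 8.56, 11.1, 12.2 and 18.1 CPM at 6 weeks and between 7.49 and 45.3 CPM (median 13.01) at 10 to 22 weeks. *Dmkn* was at 0.332, 0.369, 0.671 and 0.927 CPM at 6 weeks and between 0.146 and 16.5 CPM (median 0.553) later. The highest later value of both genes was the 18-week library of mouse 5. The ages overlapped, and 0 of 7 tested members were called by edgeR, with 0 at an unadjusted p under 0.05, against 0.102% of 20647 genes (0.0145% higher, 0.0872% lower). DESeq2 called 0 of the 3 members to which it gave an adjusted p. *Sbsn* differed by 0.15 (SE 0.361) and *Dmkn* by 0.27 (SE 1.02), and both estimates turned negative without that library or with library totals. In the test of the difference between nonprogressors and NOR in their change with age, 0 members were called, and *Dmkn* (−3.92, SE 1.35) and *Sbsn* (−1.36, SE 0.509) had an unadjusted p under 0.05 and an adjusted p of 0.741.

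Progressors were compared over time, the mean of −5, −3, −1 and onset against 6 weeks of age, with 10 mice. *Sbsn*, the most abundant member, was at 17.0, 25.3, 13.5, 20.5 and 13.8 CPM at 6 weeks in mice 1 to 5 (batch 1) and at 16.8, 6.78, 15.3, 30.8 and 11.6 CPM in mice 6 to 10 (batch 2). From −5 to onset it ran from 7.42 to 34.0 CPM (median 13.1) in batch 1 and from 3.16 to 13.01 CPM (median 5.66) in batch 2. The ranges overlapped in both batches, and the medians were further apart in batch 2. *Sbsn* fell by 0.94 on the log2 scale (SE 0.191, adjusted p = 0.000122), and 19.2% of 20767 genes tested were called lower. Within batch 2 it fell by 1.40 (adjusted p = 0.000186) and within batch 1 by 0.37 (adjusted p = 0.245). Whether the batches differ in this change was not tested.

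*Lipm* was the other member called, higher by 2.22 (SE 0.788, adjusted p = 0.0218), where 20.4% of the genes were called higher and 39.6% in either direction. The −5 libraries, on which the study chose *Lipm*, are among the later ones, and the mean of −3, −1 and onset gave 2.39 (SE 0.850, adjusted p = 0.0232). At 6 weeks it was at 0.0540, 0.0656, 0.0348, 0 and 0 CPM in batch 1 and at 0.0241, 0.102, 0, 0.677 and 0.303 CPM in batch 2. From −5 to onset its median was 0.164 CPM (0 to 3.77) in batch 1 and 0.338 CPM (0.0233 to 10.3) in batch 2. All 6-week libraries except that of mouse 8, at 0, lay within the later range of their batch. Most 6-week libraries held few counts of *Lipm*. It passed the filter on low counts mainly through the later libraries, so its call is a description. Within batch 2 the difference was 1.58 (adjusted p = 0.227), and within batch 1 *Lipm* had too few counts to be tested. Without the 6 libraries that stood apart in *Krt10* or *Tchh*, *Lipm* was higher by 1.94 (adjusted p = 0.00837) and *Sbsn* lower by 0.81 (adjusted p = 0.000107). *Dmkn* was then called too, lower by 1.98 (adjusted p = 9.53e-05), in place of 0.92 (SE 0.639, adjusted p = 0.256) with all libraries. The 6 libraries were chosen after seeing the data, and most were from −5 to onset. They held the highest later *Dmkn* levels, 20.1, 15.7 and 9.92 CPM, besides 15.6 CPM at 6 weeks in mouse 9. Leaving them out lowers the later levels, so the calls without them are descriptions.

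*Sprr1a* (3.07, SE 1.41, adjusted p = 0.0792), *Tgm3* (2.66, SE 1.19, adjusted p = 0.0706) and *Flg2* (−1.34, SE 0.975, adjusted p = 0.284) were not past the threshold. The first 2 of these estimates were 0.34 and 0.31 without the 6 libraries. *Lor*, *Ivl*, *Flg* and *Krtdap* had too few counts across the libraries to enter the fit. Within batch 2, where *Krtdap* could be tested, it fell by 3.09 (adjusted p = 0.000488), from 0.0255 to 3.06 CPM (median 0.795) at 6 weeks to 0 to 2.29 CPM (median 0.0962) from −5 to onset. It passed the filter there mainly through its 6-week libraries, so this call is a description. With the mouse as a block, 4 members were called, *Dmkn* (−1.55, adjusted p = 0.0405), *Krtdap* (−1.66, adjusted p = 0.0101), *Lipm* (2.23, adjusted p = 0.0166) and *Sbsn* (−0.89, adjusted p = 0.000220). Over all genes, the alternative fits other than that within batch 1 called 6192 to 8519, against 8221 in the main fit, so these calls are descriptions.

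Other genes of the same INs moved between 6 weeks and the later times. Fibroblast genes were called lower in 4 of 4 (*Col1a1* −1.24, *Lum* −1.35, *Dcn* −1.16), with a summed level of 17840 to 25840 CPM at 6 weeks and 3041 to 14680 CPM from −5 to onset in batch 2. In batch 1 it was 16850 to 32940 CPM and then 4234 to 18150 CPM, overlapping at −1. Hair follicle genes were called higher in 3 of 8 tested (*Krt27* 5.23, *Tchh* 3.89, *Krt71* 4.94) and mammary epithelium genes in 3 of 5 (*Csn2* 4.54, *Csn3* 3.19, *Krt18* 3.28). Of the keratinocyte lists, 1 of 5 basal genes (*Krt14* 2.68), 0 of 4 suprabasal genes, 2 of 5 adhesion genes and 1 of 2 wound keratin genes were called higher, and of 10 tested other cornified and barrier genes 1 was, the acid lipase gene *Lipn* (1.28), the list's median being 1.23 against 0.02 over all genes. Regulators of differentiation were called higher in 3 of 8 and lower in 1 (*Klf4* −0.90), macrophage genes higher in 1 of 4 (*Csf1r* 0.18), and adipocyte (4 tested), skeletal muscle (4 tested) and sebaceous gland genes (2 tested) in 0. The part of these cell types in the change of *Lipm* and *Sbsn* was not tested.

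NOD and NOR were compared within batch 1 by summing the libraries of each mouse, 9 NOD mice against 5 NOR mice. *Lipm* ran from 0.0773 to 0.785 CPM (median 0.162) in NOD mice and was at 0.0716, 0.0566, 0.0899, 0.0550 and 0.0798 CPM in NOR mice. Progressor mouse 1 had the lowest NOD value, inside the NOR range, and the other 8 NOD mice were above all NOR mice. *Lipm* was called higher in NOD (2.02, SE 0.597, adjusted p = 0.0476), the only call among 8 tested members, where 3.87% of 23387 genes were called higher, 5.11% lower and 8.98% in either direction. The summed libraries of the NOR mice held only 7 to 10 counts of *Lipm* each. The NOD sums include the −5 libraries of batch 1 progressors, on which the study chose *Lipm*, so this call is a description. *Ankrd22*, which overlaps *Lipm*, was not called (1.12, adjusted p = 0.388). Without the libraries with the highest *Krt10* or *Tchh*, *Lipm* was at 1.08 (adjusted p = 0.0238), and it missed the threshold on leaving out 10 of the 14 mice in turn (adjusted p up to 0.106) and with library totals (adjusted p = 0.0548).

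*Flg2* was at 0.0397 to 26.8 CPM in the 9 NOD mice and at 0 to 0.01998 CPM in the 5 NOR mice, whose summed libraries held 0, 0, 1, 1 and 2 counts. *Flg2* passed the filter on low counts only through the NOD mice, so that these values are a description. The fitted difference, 8.85 (SE 2.65, adjusted p = 0.0510), depends on how counts near 0 are treated. *Tgm3* was at 0.126 to 3.67 CPM in NOD and 0.0306 to 0.140 CPM in NOR mice (2.87, SE 1.00, adjusted p = 0.0912). *Sbsn* overlapped widely, 11.2 to 37.6 CPM in NOD and 10.5 to 17.3 CPM in NOR mice (0.37, SE 0.266, adjusted p = 0.449). *Lor*, *Sprr1a*, *Dmkn* and *Krtdap* had adjusted p between 0.142 and 0.262, and *Ivl* and *Flg* were too low to test. Of other lists, *Krt6a* (5.14) of 2 tested wound keratins, *Aloxe3* (1.68) of 12 tested other cornified and barrier genes and *Hopx* (0.32) of 8 regulators were called higher. Suprabasal (4 tested), basal (5), adhesion (5) and hair follicle genes (8) held 0 calls, with medians of 5.55, 3.68, 2.67 and 7.49 against −0.00161 over all genes. The summed hair follicle level ran from 1.07 to 42.3 CPM in NOR libraries and from 1.13 to 5212 CPM in NOD libraries of batch 1, and the summed suprabasal level from 6.39 to 26.5 CPM and from 5.08 to 487 CPM. The part of these tissues in the levels of *Lipm* and *Flg2* was not tested.

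**Figure D4:**
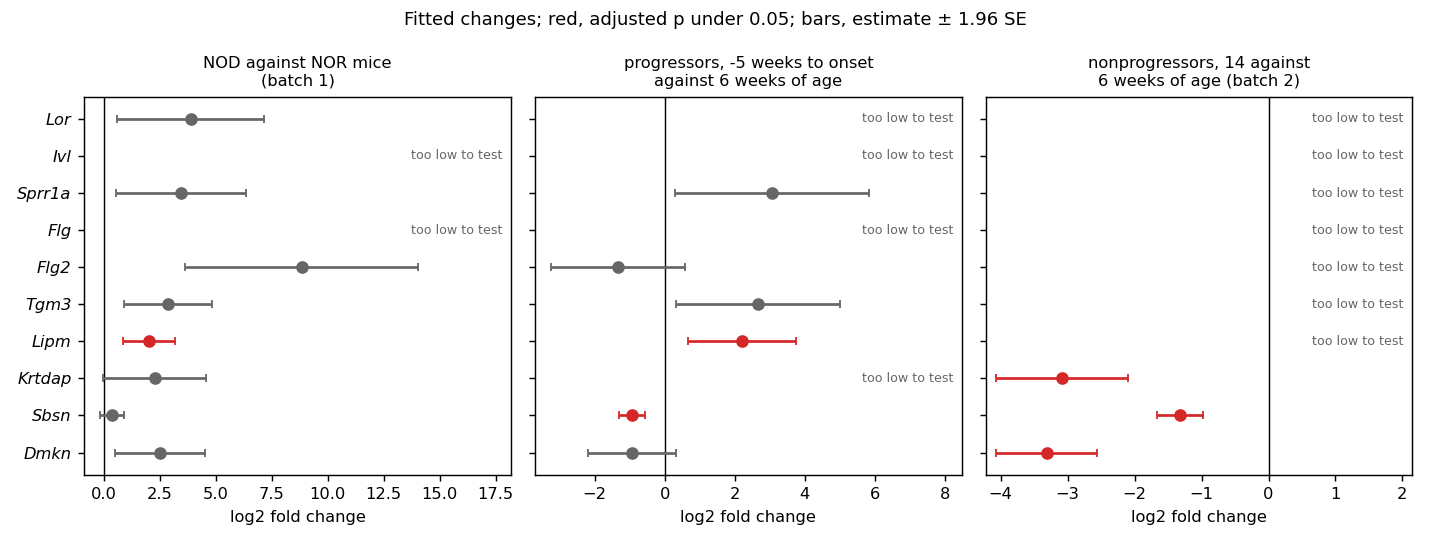
Log2 fold changes of the members are plotted in 3 comparisons, with bars for the approximate 95% interval from the SE and red for an adjusted p under 0.05. *Lipm* is called higher in NOD and in progressors from −5 to onset, and *Sbsn* lower in progressors from −5 to onset. *Sbsn*, *Dmkn* and *Krtdap* are called lower at 14 weeks in nonprogressors of batch 2. The calls of *Lipm* in progressors and of *Krtdap* are descriptions, because each passed the filter mainly or only through the libraries in which it was high. That of *Lipm* in NOD is a description because NOR mice held few counts and −5 libraries entered the NOD sums. The 14-week comparison was added after its values were seen, so the calls of *Sbsn* and *Dmkn* there are descriptions too. Members without a point had too few counts.

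At 6 weeks of age, 10 progressors and 11 nonprogressors were compared with the batch as a term. *Sbsn* differed by −0.14 (SE 0.314), *Dmkn* by −0.996 (SE 0.901) and *Krtdap* by −1.20 (SE 0.914). The quasi-likelihood test of edgeR called 0 of these 3 members and 0 of 20090 genes (0.0%), with 0 members and 999 genes at an unadjusted p under 0.05. DESeq2 gave an adjusted p to *Sbsn* alone and did not call it. All 3 differences turned positive within batch 2 or without nonprogressor mouse 4. The approximate 95% intervals of the differences ran from −0.755 to 0.476 for *Sbsn*, from −2.76 to 0.769 for *Dmkn* and from −2.997 to 0.587 for *Krtdap*.

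Between batches, nonprogressors of the same ages differed for *Sbsn* (−1.12 in batch 2, SE 0.263, adjusted p = 0.00139) and *Dmkn* (−2.10, SE 0.656, adjusted p = 0.0118), 2 of 4 tested members, where 24.3% of 20375 genes were called lower and 48.6% in either direction. Without the 3 libraries with the highest *Krt10*, *Sbsn* was at −0.62 (adjusted p = 0.00947), *Dmkn* at 0.36 (adjusted p = 0.643) and *Krtdap* called higher at 1.55 (adjusted p = 0.0385). These libraries were chosen after seeing the data and include the highest *Krtdap* level of batch 1, so that call is a description. With library totals the genes called were 69.6% higher (7425 against 3239) in place of 4950 higher and 4954 lower, the median gene shifting by 0.17, and *Sbsn* and *Dmkn* were lower under both. The mice, the sequencer and the batch changed together and cannot be told apart.

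Progressors at −7 and −5, the contrast from which the study chose *Lor* and *Lipm*, are described without a test. The −7 libraries were all in batch 2, and the −5 libraries were in batch 1 for mice 1 to 5 and in batch 2 for mice 6 to 10. *Lor* was at 0 in all 8 libraries at −7, where 3 counts would be at most 0.0802 CPM. At −5 in batch 2 it was at 0 in mice 6, 7 and 8, at 5.47 CPM in mouse 9 and at 1.13 CPM in mouse 10, with a mean of 1.32 CPM that became 0.281 CPM without mouse 9. *Lipm* was between 0.0236 and 0.374 CPM at −7, and at 0.0233, 0.272, 0.384, 0.839 and 1.74 CPM at −5 in mice 6 to 10, with a mean of 0.651 CPM that became 0.380 CPM without mouse 10. At −5 in batch 1, *Lor* was at 0.256, 0.0663, 0.0465, 0.0283 and 0 CPM in mice 1 to 5, and *Lipm* at 0.128, 0.166, 0.163, 0.311 and 0.120 CPM. The 2 highest values of both genes were those of mice 9 and 10. In these mice *Krt10* went from 0.704 to 42.99 CPM and from 0.636 to 4.68 CPM, and *Flg2* from 0.0227 to 17.95 CPM and from 0 to 2.37 CPM. In mice 6 and 7, which also had both libraries in batch 2, *Lor* stayed at 0 and *Lipm* went from 0.0946 to 0.0233 CPM and from 0.374 to 0.272 CPM. *Tchh* rose to 268 CPM in mouse 10 and was at 1.35 CPM in mouse 9. The part of skin and hair follicle tissue in the −5 INs of mice 9 and 10 was not tested.

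**Figure D5:**
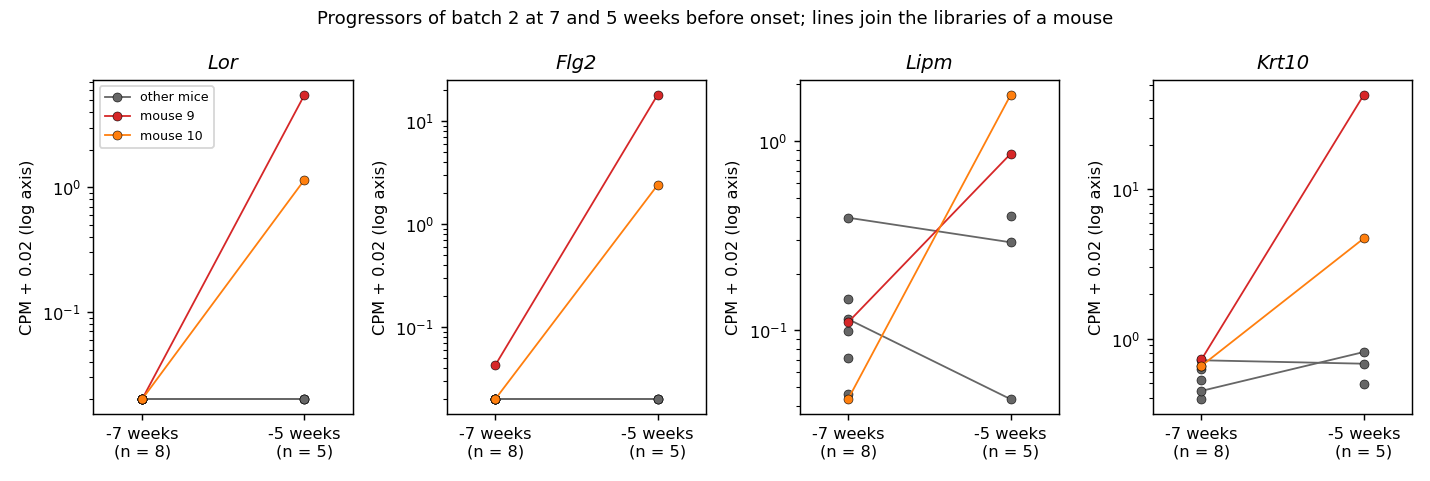
*Lor*, *Flg2*, *Lipm* and *Krt10* are plotted as CPM + 0.02 on log axes in the 8 libraries at −7 and the 5 at −5 of batch 2 progressors, with lines between the libraries of a mouse. The lines of mice 9 and 10 rise in all 4 panels, and *Lor* lies at 0 in all other libraries.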

How the data were processed

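The authors deposited 2 tables of expected counts per gene, 1 for each sequencing batch, made by RSEM after STAR alignment to GRCm38 and read trimming with cutadapt (tools per the labels, with FastQC and MultiQC for quality; versions and the strand setting are not given in the sources used here). The libraries were ribosome-depleted total RNA of whole INs. The deposited values were whole numbers and were used without rounding. RSEM shares out reads that fit several genes, which can move counts between overlapping or repetitive genes, the filaggrin genes among them. Groups came from the labels, and 0 columns with per-sample values were left unused.

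All genes passing filterByExpr entered each fit, by the quasi-likelihood test of edgeR (version 4.0.16, R version 4.3.3) after TMM scaling. P-values were adjusted over all genes tested (Benjamini-Hochberg), with a threshold of 0.05, and DESeq2 1.42.0 was an alternative. NOD and NOR were compared on counts summed per mouse in batch 1, progressors with batch as a term, and ages within batch 1 or batch 2. Libraries of 1 mouse are repeated samples, and the fits over libraries treat them as independent unless the mouse is a block. Numbers pair libraries because a number names an animal; deviations of the same mouse correlated little (mean r 0.00881 in NOR, 0.00694 in nonprogressors and −0.0101 in progressors over 2000 genes). No pair of libraries of a group looked like a repeated deposit (lowest chi-square per degree of freedom 11.97 over 416 pairs). The fits were tested on simulated counts, in which all genes had the same relative spread and no mouse effect or outlying library. A log2 change of 1 was recovered for 41% (NOD against NOR) to 97% (progressors over time) of the changed genes. The members, whose levels rest on few INs, differ from these settings, so the simulation does not bear on their calls. A member at low counts can pass the filter through the group in which it is high, so the numbers of members called among those tested are descriptions.

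The members and all gene lists were chosen with earlier results of these data known. The lists were other cornified and barrier genes, basal, suprabasal, adhesion and wound keratinocyte genes, regulators of differentiation, hair follicle, sebaceous gland, mammary epithelium, fibroblast, adipocyte, skeletal muscle and macrophage genes. The text names all 10 members, at most 3 called genes of each list with the smallest p, markers whose levels stand beside a member, and the genes among the 20 most like the mean of the members in both batches at a mean of 0.5 CPM or more. The comparison of 14 with 6 weeks in batch 2, the fits without libraries that stood apart in *Krt10* or *Tchh*, the robust prior and the likeness to single members were chosen after seeing the data. Figures use log2(CPM + 0.1) or CPM + 0.02.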

Additional observations from a re-analysis of the deposited data

Results flagged for a closer look

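Among 230 sets of 4 to 8 libraries of 1 group, time and batch, a single library lay further from the others than Dixon's 95% limit 51 times, of which 32 had more than 3 counts of the gene and 19 had 3 or fewer. For normally distributed values, chance would flag about 1 set in 20. Many of these sets hold values at or near the detection limit, where that rate need not hold. The number of flags is therefore a description and was not compared with chance. The 32 are given here in CPM.

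Nonprogressor mouse 4 at 6 weeks (batch 1) was far above its group for *Lor* (19.21), *Ivl* (2.376), *Flg* (23.35), *Krtdap* (11.97) and *Dmkn* (70.3), and at 10 weeks for *Sbsn* (41.63). Nonprogressor mouse 2 stood apart for *Flg* at 18 weeks (22.73) and for *Tgm3* at 14 weeks (0.6391). In batch 2, nonprogressor mouse 5 at 6 weeks stood apart for *Lor* (0.7825), *Ivl* (0.09484), *Flg* (0.2845) and *Flg2* (3.485), and mouse 6 at 14 weeks for *Sbsn* (7.442).

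Among progressors, mouse 9 at 6 weeks stood apart for *Lor* (3.71), *Ivl* (0.35) and *Flg* (2.007), and mouse 5 at 6 weeks for *Ivl* (0.4481). Mouse 10 did so for *Sprr1a* at −5 (10.28) and for *Lor* (0.6774), *Flg* (0.5927) and *Flg2* (5.871) at −1. Mouse 2 did so at −3 for *Ivl* (6.77), *Sprr1a* (56.75) and *Flg2* (0.5872), and at −1 for *Lor* (0.4547). Mouse 7 did so at onset for *Ivl* (14.97), *Tgm3* (45.56) and *Dmkn* (20.13), and at −7 for *Lipm* (0.3743). In NOR, mouse 4 at 6 weeks was high for *Ivl* (0.2063), mouse 5 at 10 weeks for *Lipm* (0.159), and mouse 1 at 14 weeks was low for *Dmkn* (0.1462).

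The 6 nonprogressor libraries taken by days post implant entered no comparison. That of mouse 1 at 38 days was above the highest of the 23 NOR libraries for *Ivl* (0.4565 against 0.2063), *Sprr1a* (1.493 against 1.024), *Flg* (6.971 against 3.092), *Flg2* (6.093 against 0.0461), *Lipm* (0.3687 against 0.2255) and *Krtdap* (0.9482 against 0.4235). That of mouse 1 at 108 days was above it for *Flg2* (0.0517, on 3 counts).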

How the results depend on the processing

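The 1 member called between NOD and NOR became 0 with library totals, without the filter on low counts, at 6 weeks only, with progressor or nonprogressor mice only and with the robust prior, 3 with DESeq2, 2 without the libraries that stood apart, and 0 to 2 on leaving out a mouse. The 2 members called in progressors became 0 within batch 1, 4 with the mouse as a replicate block and 4 without −5. The 5 called in ageing nonprogressors became 8 without the filter, 1 with DESeq2 (which gave 4 of them no adjusted p), 2 with the block, 0 without the libraries that stood apart, and 0 to 6 on leaving out a mouse. The 2 called between batches became 6 without the filter, 1 with DESeq2, 1 at 6 weeks alone and 1 to 3 on leaving out a mouse. The 3 called at 14 weeks in batch 2 became 6 without the filter and 5 with the block. The block changed no other count of members. The cause of these changes was not tested. The share of all genes called under each setting is not given beside these counts of members. Whether the members exceed that share was therefore not tested, and the counts are descriptions.

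Estimates that turned were, on the log2 scale, as follows. For progressors against nonprogressors at 6 weeks, *Dmkn* was 0.776, *Krtdap* 0.555 and *Sbsn* 0.338 within batch 2, and *Dmkn* 0.242 and *Sbsn* 0.0799 without the libraries that stood apart. On leaving out a mouse they ran from −1.54 to 0.700, −1.91 to 0.343 and −0.367 to 0.316. *Flg2* in progressors was 1.05 with the block and ran from −1.95 to 2.55 (the latter without mouse 9). In ageing NOR, *Dmkn* was −0.0367 and *Sbsn* −0.107 with library totals, and −0.127 and −0.00762 without the 18-week library of mouse 5. On leaving out a mouse *Flg* ran from −0.112 to 1.62, *Krtdap* from −1.76 to 0.0578, *Dmkn* from −0.376 to 0.584 and *Sbsn* from −0.0682 to 0.344. In ageing nonprogressors *Dmkn* was 0.203 without the libraries that stood apart. On leaving out a mouse *Dmkn* ran from −4.65 to 0.438, *Flg* from −4.21 to 2.25, *Flg2* from −5.95 to 1.53, *Krtdap* from −5.04 to 0.0306, *Sprr1a* from −2.56 to 1.302 and *Tgm3* from −1.75 to 0.162. For the difference in ageing, *Krtdap* was 0.735 without the libraries that stood apart, and *Dmkn* ran from −4.91 to 0.112, *Flg* from −5.80 to 1.74, *Krtdap* from −3.99 to 1.08 and *Sprr1a* from −3.44 to 0.430. Between batches, *Sprr1a* was 0.0633 with library totals and 1.57 at 14 weeks alone, *Dmkn* 0.362 and *Krtdap* 1.55 without the libraries that stood apart. *Krtdap* ran from −2.07 to 0.700 and *Sprr1a* from −0.527 to 1.17.

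Counts over all genes moved by more than 1.5 times as follows. NOD against NOR had 2101 genes, 403 at 6 weeks only and 1099 with progressors only. Progressors had 8221, and 5317 within batch 1. Ageing NOR had 21, 42 with DESeq2, 11 with the block, 7 when fitted alone and 0 to 44 on leaving out a mouse (0 without NOR mouse 1, 44 without NOR mouse 4). Ageing nonprogressors had 2540, 1474 with library totals, 1113 without the libraries that stood apart and 611 to 3200 on leaving out a mouse (611 without nonprogressor mouse 4, 662 without mouse 1). The difference in ageing had 0, and 2 with DESeq2. The batches had 9904, and 6084 at 14 weeks alone. In ageing NOR, library totals left 0 of 21 called genes higher in place of 14.3%.

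In batch 2, 1 count was worth 0.0211 CPM or more, and members at 0 are not detected at that depth.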
